A study of Mus musculus with 32 samples.

Results

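The Slc25 family comprises the mitochondrial carriers, and 41 of its genes were followed in mouse liver across photoperiod and time of day. Members were all genes in the authors' deposited log2 table whose symbol begins with Slc25a and a digit, which gave 41 of 13432 genes. All 41 passed the filter on low counts and were among the 14456 genes tested. The livers came from 32 male mice of the inbred strain C3H/HeNCrl, all on a high fat diet, and polyadenylated RNA was sequenced. Mice lived in short light (SL) or long light (LL) photoperiods, 16 each, and 4 mice per photoperiod were taken at each of zeitgeber time (ZT, hours on the light schedule) 0, 6, 12 and 18. The groups were therefore SL ZT0, SL ZT6, SL ZT12, SL ZT18, LL ZT0, LL ZT6, LL ZT12 and LL ZT18, with n = 4 in each. Neither the hours of light, nor the event that sets ZT0, nor the age of the mice is given in the sources used here. Each library is labelled as a sample of its own, and p-values measure the spread between these libraries, part of which may be technical.

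Mitochondrial carriers are small proteins of the inner mitochondrial membrane that exchange metabolites between the matrix and the cytosol. They move citrate, malate, amino acids, acylcarnitines, phosphate, adenine nucleotides, cofactors and iron, so most pathways that span both compartments run through them. In liver they serve the urea cycle, fatty acid synthesis and oxidation, glucose production and haem synthesis, and a few members remain without an agreed substrate.

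Total counts were 9095615 to 27462776 per library. The 8 hepatocyte marker genes were high in every library, with summed levels of 112870.0 to 143941 CPM (read counts scaled to a fixed library size). LL ZT12 replicate 3 stood apart, with a mean correlation of log2 CPM with its group mates of 0.969, against at least 0.981 for every other library. The 9 markers of skeletal muscle summed to 122.6 CPM in LL ZT0 replicate 2, 75.6 in LL ZT18 replicate 2 and 249.2 in LL ZT18 replicate 3, and to at most 39.7 in every other library. The 7 markers of exocrine pancreas summed to up to 55.5 CPM in a library of SL ZT12, 30.8 in LL ZT0 and 6.13 in LL ZT6. In every other group their sum was at most 0.293 CPM. In whole tissue, fewer cells of a type and less RNA per cell cannot be told apart. Together the 41 members held 3806 to 5027 CPM per library (median 4389).

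Levels of different genes were compared as read counts scaled to exon length as well as library size (RPKM), averaged over the 32 mice. The adenine nucleotide translocator Slc25a5 led at 219 RPKM, followed by the liver carrier Slc25a47 at 175 and the glutathione carrier Slc25a39 at 126. Citrate carrier Slc25a1 came next at 106 and the aspartate-glutamate carrier Slc25a13 at 77.1 RPKM. Each of these 5 exceeded the next in the order in at least 24 of the 32 mice. Slc25a10 (50.9 RPKM), Slc25a3 (47.6) and Slc25a25 (45.1) overlapped, each above the next in the order in 19 or 20 of 32 mice. At the low end were Slc25a24 at 0.406 RPKM, Slc25a36 at 0.306 and Slc25a53 at 0.254. The paralogs differed in level, since Slc25a13 stood at 77.1 RPKM and its sister Slc25a12 at 2.11, and Slc25a5 at 219 against 2.46 for Slc25a4.

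Windows of 250 bases before to 50 after the start site were held in RefSeq (GRCm38.p6) for 32 of the 41 members. The 250 bases before the start are shown for 6 of them. Slc25a1, Slc25a10 and Slc25a11 are carboxylate carriers called in the photoperiod by ZT interaction. Slc25a13 holds an E-box and was called for time of day within SL but not within LL. Both of these outcomes changed when certain single libraries were left out, as given below. Slc25a33 holds an E-box and passed no test, and Slc25a45 had the opposite sign to the other called members at ZT6 and ZT18. Capitals mark the E-box letters CACGTG, the element bound by the clock factors CLOCK and BMAL1, and the CCAAT box (CCAAT, or ATTGG on the other strand), and each line reads 5′ to 3′ on the gene's strand.
Slc25a1: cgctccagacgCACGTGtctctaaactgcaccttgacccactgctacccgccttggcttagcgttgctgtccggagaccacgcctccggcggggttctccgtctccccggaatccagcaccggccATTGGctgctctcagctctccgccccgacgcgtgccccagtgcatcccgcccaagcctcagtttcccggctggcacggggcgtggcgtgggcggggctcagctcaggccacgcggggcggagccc
Slc25a10: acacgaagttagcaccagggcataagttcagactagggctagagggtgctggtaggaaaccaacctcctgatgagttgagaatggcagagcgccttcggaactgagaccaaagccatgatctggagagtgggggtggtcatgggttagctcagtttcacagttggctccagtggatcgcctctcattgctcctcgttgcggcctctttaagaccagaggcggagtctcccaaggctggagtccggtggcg
Slc25a11: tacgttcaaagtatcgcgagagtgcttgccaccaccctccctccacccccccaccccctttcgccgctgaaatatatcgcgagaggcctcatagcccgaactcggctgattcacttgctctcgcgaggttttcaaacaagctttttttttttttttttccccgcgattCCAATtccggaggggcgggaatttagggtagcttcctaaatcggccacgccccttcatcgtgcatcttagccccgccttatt
Slc25a13: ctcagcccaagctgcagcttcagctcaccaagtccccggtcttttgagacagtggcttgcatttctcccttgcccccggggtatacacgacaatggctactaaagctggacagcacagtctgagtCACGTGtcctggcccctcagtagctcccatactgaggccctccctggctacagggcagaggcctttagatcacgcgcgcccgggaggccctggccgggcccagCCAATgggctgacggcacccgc
Slc25a33: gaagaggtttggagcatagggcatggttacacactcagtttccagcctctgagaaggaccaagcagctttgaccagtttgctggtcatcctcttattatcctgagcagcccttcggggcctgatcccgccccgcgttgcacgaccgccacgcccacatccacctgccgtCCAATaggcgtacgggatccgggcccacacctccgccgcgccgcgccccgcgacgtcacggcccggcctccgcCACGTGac
Slc25a45: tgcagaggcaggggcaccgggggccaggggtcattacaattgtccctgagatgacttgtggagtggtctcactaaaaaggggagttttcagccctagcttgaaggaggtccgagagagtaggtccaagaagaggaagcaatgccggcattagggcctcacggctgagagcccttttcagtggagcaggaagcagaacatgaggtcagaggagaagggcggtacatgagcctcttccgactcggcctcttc
These are chr16:17928220-17928469 (minus), chr11:120491587-120491836 (plus), chr11:70647040-70647289 (minus), chr6:6217174-6217423 (minus), chr4:149774268-149774517 (minus) and chr19:5877572-5877821 (plus). They lie before the RefSeq start, and at most 19 of their bases fall in GENCODE M21 exons of the same gene. The window of Slc25a11 lies wholly within the GENCODE M21 bounds of that gene, which begin further upstream. In the bases shown, Slc25a10 and Slc25a45 held neither motif. Counted back from the start, the E-box began at base 239 in Slc25a1, at base 125 in Slc25a13 and at base 8 in Slc25a33.

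Over the full windows, searched on both strands, CACGTG occurred in 5 of 32 members (15.6%) and in 7.24% of 27025 windows of all genes. Its holders were Slc25a1, Slc25a13, Slc25a14, Slc25a33 and Slc25a36, of which 2 passed the photoperiod by ZT interaction described next, while 17 of the 27 members without it passed. CCAAT or ATTGG occurred in 17 of 32 members (53.1%) and in 38.0% of all windows, and 11 of those 17 passed the interaction, as did 8 of the 15 without it. The D-box (TTATGTAA, TTATGCAA, TTACATAA or TTGCATAA), the ROR core (TAGGTCA or TGACCTA) and the NRF1 core (GCGCATGC or GCATGCGC) occurred in none of the 32. They occurred in 1.74%, 2.60% and 2.80% of all windows, in that order. These matches describe letters in a window and carry no test.

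The difference between photoperiods was tested at each ZT. Tests were made with the quasi-likelihood test of edgeR, adjusted over all tested genes, and "called" means an adjusted p under 0.05. SL minus LL at a given ZT was called in 8 members at ZT0, all higher in SL, against 6.07% of all tested genes called higher and 4.97% lower. At ZT6 16 members were higher in SL and 1 was lower, against 6.9% and 8.38% of all tested genes. At ZT12 the direction was the other way, with 10 members lower in SL and 0 higher (6.4% and 6.05% of all tested genes). At ZT18 5 members were lower and 1 was higher in SL (4.39% and 4.82% of all tested genes). The median log2 difference over the 41 members was 0.19 at ZT0, 0.14 at ZT6, -0.17 at ZT12 and -0.12 at ZT18, while over all tested genes it lay between -0.01 and 0.01.

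**Figure D1:**
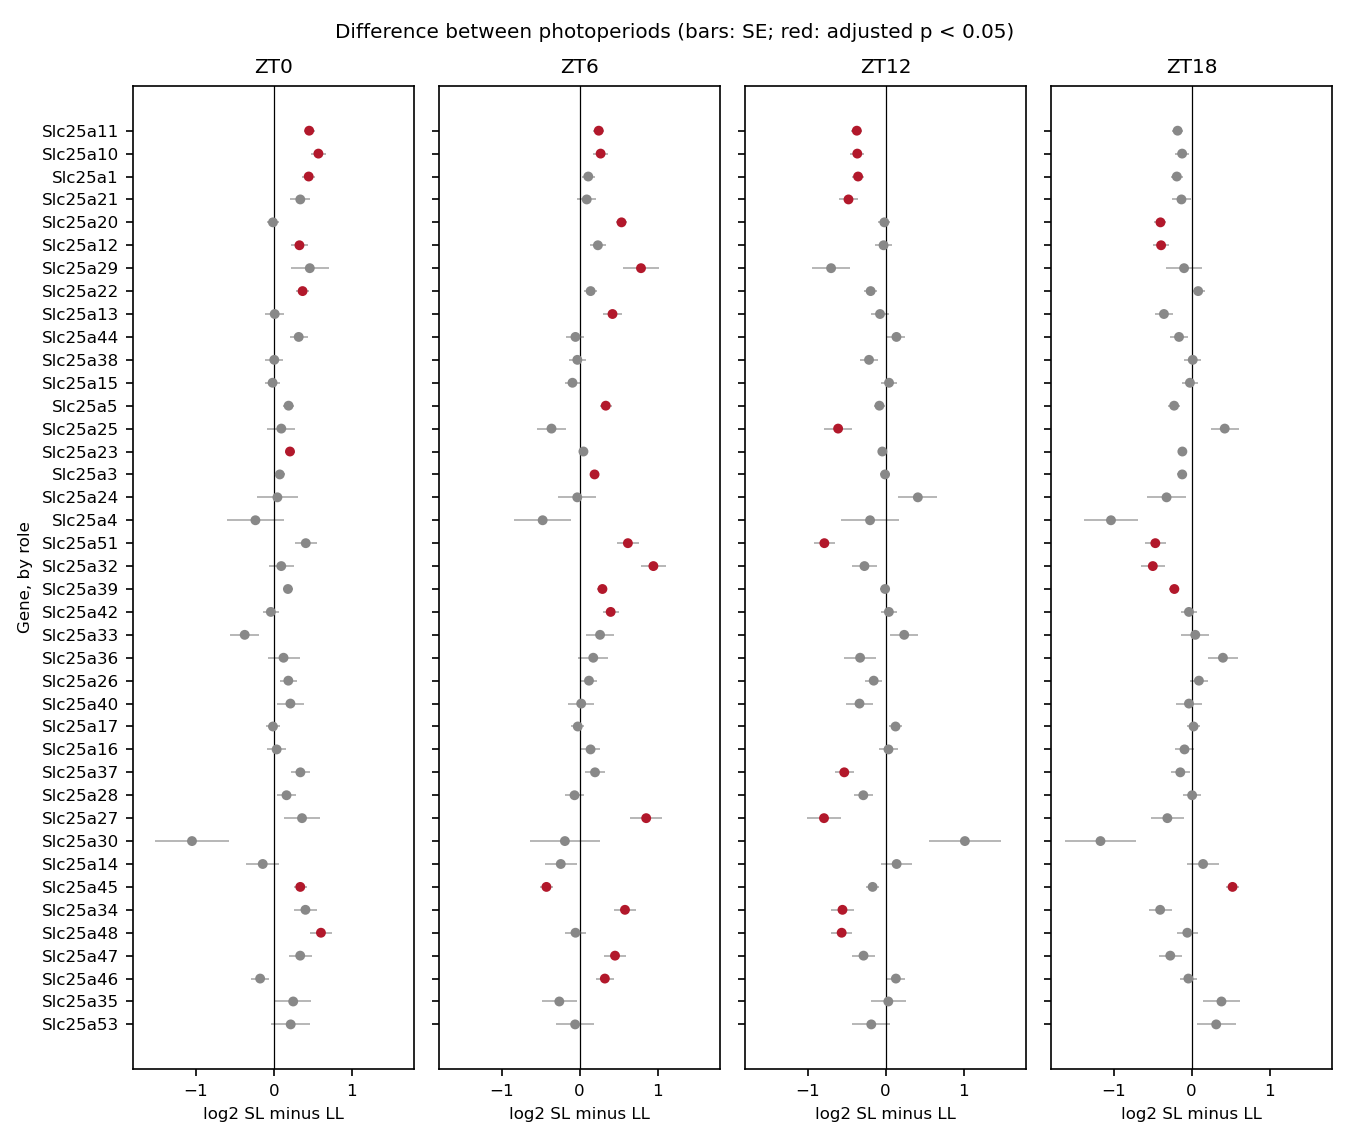
Log2 difference SL minus LL of 40 Slc25a genes at each ZT (x axis), with genes grouped by role on the y axis, points for the estimate over 4 against 4 mice and bars for the SE; red points have an adjusted p under 0.05. At ZT0 the 8 red points lie to the right of 0, at ZT6 15 of 16 do, and at ZT12 all 10 lie to the left.

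Of the 41 members, 12 were called at more than 1 ZT, and the share of all tested genes so called is not given here. Slc25a10, Slc25a11, Slc25a45 and Slc25a51 were called at 3 ZTs each, and Slc25a1, Slc25a12, Slc25a20, Slc25a27, Slc25a32, Slc25a34, Slc25a39 and Slc25a48 at 2. Among the members called at ZT0 the largest log2 differences were 0.61 for Slc25a48, 0.57 for Slc25a10, 0.46 for Slc25a11 and 0.45 for Slc25a1. At ZT6 they were 0.95 for Slc25a32, 0.85 for Slc25a27, 0.79 for Slc25a29 and 0.62 for Slc25a51, with Slc25a45 at -0.43. At ZT12 the furthest below 0 were Slc25a27 (-0.79), Slc25a51 (-0.79), Slc25a25 (-0.61) and Slc25a48 (-0.56). At ZT18 Slc25a32 (-0.50), Slc25a51 (-0.47), Slc25a20 (-0.40) and Slc25a12 (-0.39) were lowest and Slc25a45 was higher (0.52).

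The interaction of photoperiod with ZT tests for a change in SL minus LL over the day. It was called in 24 of the 41 members (58.5%) and in 32.7% of all tested genes. The members were more abundant than the tested genes at large, with a median mean level of 37.2 CPM against 12.2 CPM. Among genes with a mean of at least 50 CPM the interaction was called in 47% of all genes and in 14 of 19 members. Under 50 CPM it was called in 10 of 22 members, and the share of all tested genes there is not given here. On simulated counts with a change added in SL ZT6, the interaction test recovered 10 of 100 genes changed by 0.5 on the log2 scale. It recovered 55 of 100 changed by 1. The other groups and most genes were left unchanged there, unlike in these data. These recoveries therefore do not give the share of changes missed among the members. Time of day was called within SL in 20 members (19.1% of all tested genes) and within LL in 15 (18.3%). Both were called in 13 members and in 12.1% of all tested genes. These 13 were Slc25a1, Slc25a5, Slc25a10, Slc25a11, Slc25a20, Slc25a22, Slc25a27, Slc25a32, Slc25a34, Slc25a39, Slc25a45, Slc25a48 and Slc25a51.

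Counts at a single ZT moved with single libraries more than the interaction did. When each of the 32 libraries was left out in turn, the interaction was called in 23 to 27 members, and 22 of the 24 calls held in all 32 fits. At ZT0 the count ran from 5 without LL ZT0 replicate 1 to 15 without LL ZT12 replicate 3. At ZT18 it ran from 3 without SL ZT18 replicate 1 or 2 to 11 without LL ZT12 replicate 3. Leaving LL ZT12 replicate 3 out gave 18 at ZT6, 10 at ZT12, 27 for the interaction, 24 for time of day in SL mice and 20 in LL mice. The shares of all tested genes called in these fits are not given here. A change in these counts may therefore not be particular to the members. Calls that held in every such fit numbered 5 of 8 at ZT0, 9 of 17 at ZT6, 7 of 10 at ZT12 and 2 of 6 at ZT18. For time of day they numbered 11 of 20 within SL and 11 of 15 within LL. Over all alternatives 1 of the 10 ZT12 calls held, that of Slc25a51, and fitting the ZT12 groups alone lost 7 of them.

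**Figure D2:**
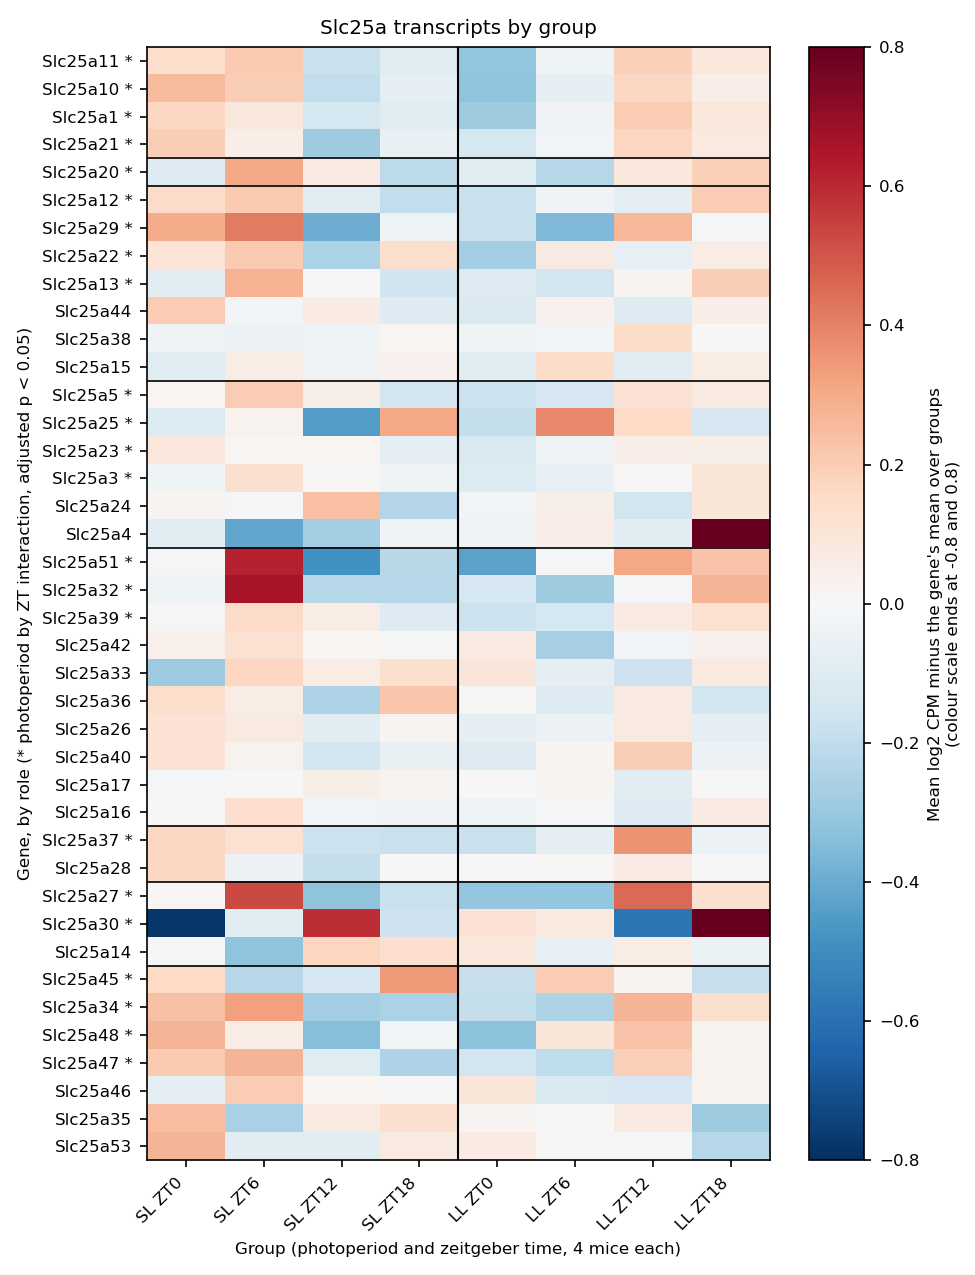
Mean log2 CPM of 40 of the genes in the 8 groups (columns, 4 mice each), minus the gene's mean over the groups, with genes in rows ordered by role; an asterisk marks an adjusted p under 0.05 for the interaction. Of the 23 marked genes, 14 were highest among SL groups at ZT6 and 6 at ZT0, while among LL groups 13 were highest at ZT12 and 7 at ZT18.

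The interaction was called in 4 of 4 carboxylate carriers, against 32.7% of all tested genes and 47% of those at 50 CPM or more, and the counts of the other role groups and gene lists stand against the same shares. Slc25a11 (chr11:70644196-70647479, minus strand) exchanges oxoglutarate for malate in the malate-aspartate shuttle and had the smallest interaction p of the family. Slc25a11 in SL mice measured, in CPM, 95.8, 85.4, 93.3 and 92.7 at ZT0, 106, 95.7, 91.6 and 92.6 at ZT6, 76.8, 71.6, 75 and 71.5 at ZT12 and 81.5, 72.1, 78.6 and 80.1 at ZT18. Slc25a11 in LL mice measured, in CPM, 65.9, 63.3, 65.2 and 73.5 at ZT0, 85.9, 73.7, 81.9 and 84.5 at ZT6, 90.7, 96.3, 108 and 86.3 at ZT12 and 88.2, 88.8, 83.6 and 93.2 at ZT18. All 4 SL mice lay above all 4 LL mice at ZT0 and at ZT6, and all 4 lay below at ZT12 and at ZT18. The difference was called at ZT0 (log2 difference 0.46, SE 0.07, adjusted p = 4.06e-05), at ZT6 (log2 difference 0.24, SE 0.07, adjusted p = 0.0169) and at ZT12 (log2 difference -0.37, SE 0.07, adjusted p = 0.000499), and was not at ZT18 (adjusted p = 0.119). Its interaction had an adjusted p of 2.77e-07. Without SL ZT6 replicate 1 or LL ZT6 replicate 2 the ZT6 call was lost (adjusted p = 0.083 and 0.0787), and without LL ZT12 replicate 3 the ZT12 difference was -0.30. With the ZT12 groups alone in the fit its ZT12 difference was -0.37 (adjusted p = 0.0621). Exons of Slc25a11 share 189 bases with Rnf167 on the opposite strand, and the strand setting of the counting is not given in the sources used here.

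Slc25a10 (chr11:120491840-120499187, plus strand), the dicarboxylate carrier that exchanges malate and succinate for phosphate, was also called at 3 ZTs. Slc25a10 in SL mice measured, in CPM, 201, 181, 233 and 216 at ZT0, 209.6, 184, 209 and 194 at ZT6, 147, 148, 159 and 154 at ZT12 and 148, 152, 172 and 193 at ZT18. Slc25a10 in LL mice measured, in CPM, 145, 131, 130.3 and 152 at ZT0, 184, 158, 157 and 164 at ZT6, 198, 207, 204 and 171 at ZT12 and 193, 189.8, 151 and 189.8 at ZT18. SL mice lay above LL mice without overlap at ZT0 and, by under 1 CPM, at ZT6, and below without overlap at ZT12. The change was largest at ZT0 (log2 difference 0.57, SE 0.09, adjusted p = 4.97e-05), where the mean was 208 ± 22 CPM in SL and 139.6 ± 10.8 in LL (SD). At ZT12 it was below 0 (log2 difference -0.36, SE 0.09, adjusted p = 0.00707; adjusted p = 0.0515 with the ZT12 groups alone in the fit), and the interaction had an adjusted p of 4.53e-06. The ZT6 call (log2 difference 0.27, SE 0.09, adjusted p = 0.044) was lost in 12 of the 32 fits that left out 1 library, with an adjusted p of up to 0.122 without LL ZT6 replicate 3.

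Slc25a1 (chr16:17925223-17928219, minus strand) exports citrate, the carbon source of cytosolic acetyl-CoA for fatty acid synthesis. Slc25a1 in SL mice measured, in CPM, 266, 239, 269 and 245 at ZT0, 249, 235, 236 and 246 at ZT6, 201, 214, 205 and 202 at ZT12 and 200.4, 218, 212 and 218 at ZT18. Slc25a1 in LL mice measured, in CPM, 194, 177, 190.3 and 185 at ZT0, 224, 203, 205 and 263 at ZT6, 229, 273, 307 and 241 at ZT12 and 246, 260.4, 219 and 243 at ZT18. The 4 SL mice lay above the LL mice at ZT0 and below them at ZT12 and ZT18, and the photoperiods overlapped at ZT6. The difference was called at ZT0 (log2 difference 0.45, SE 0.08, adjusted p = 0.000238) and at ZT12 (log2 difference -0.35, SE 0.08, adjusted p = 0.00294; -0.27 without LL ZT12 replicate 3; adjusted p = 0.0991 with the ZT12 groups alone), with an adjusted interaction p of 8.01e-06. Slc25a21, which carries oxoadipate and related oxodicarboxylates, had means of 9.04 ± 0.394 CPM in SL and 12.6 ± 2.79 in LL at ZT12 (log2 difference -0.48, SE 0.13, adjusted p = 0.0105). That call was lost without LL ZT12 replicate 3 (log2 difference -0.31, adjusted p = 0.0809), while its interaction (adjusted p = 0.00416) held in every fit that left out 1 library.

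**Figure D3:**
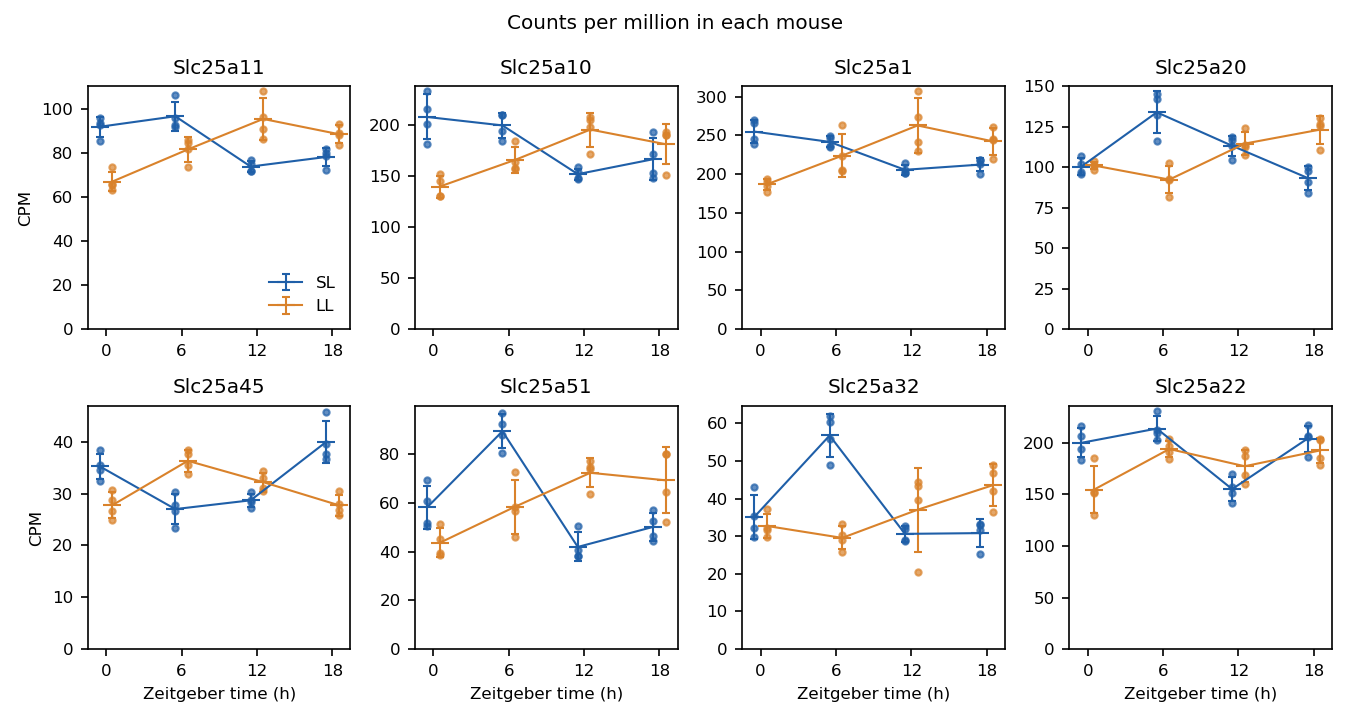
CPM (y axis, from 0) in each mouse against ZT (x axis, SL blue and LL orange, drawn slightly apart) for 8 Slc25a genes; points are mice, horizontal ticks joined by lines are means of 4 and bars are SD. Slc25a11 was higher in SL at ZT0 and ZT6 and lower at ZT12, and Slc25a45 was lower in SL at ZT6 and higher at ZT0 and ZT18.

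Of 6 genes that make citrate or act downstream of it, 3 were called in the interaction (32.7% of all tested genes). The fatty acid synthase Fasn was higher in SL at ZT0 (log2 difference 1.19, SE 0.30, adjusted p = 0.0067) and lower at ZT6 (log2 difference -0.95, SE 0.29, adjusted p = 0.0266). Citrate synthase Cs was lower in SL at ZT6 (log2 difference -0.29, SE 0.08, adjusted p = 0.0162) and higher at ZT18 (log2 difference 0.30, SE 0.09, adjusted p = 0.0211). ATP-citrate lyase Acly was higher in SL at ZT0 (log2 difference 0.88, SE 0.28, adjusted p = 0.0364). Of these 6 genes, 2 were higher and 0 lower in SL at ZT0 (6.07% and 4.97% of all tested genes), and 0 were higher and 2 lower at ZT6 (6.9% and 8.38%).

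Slc25a20 (chr9:108662088-108684641, plus strand) brings acylcarnitines into the matrix for fatty acid oxidation and peaked in SL at ZT6. Slc25a20 in SL mice measured, in CPM, 96.9, 107, 95.8 and 102 at ZT0, 142, 116, 145 and 132 at ZT6, 117, 113, 118 and 104 at ZT12 and 84.2, 91.1, 97.9 and 100.1 at ZT18. Slc25a20 in LL mice measured, in CPM, 100.5, 98.1, 104 and 101 at ZT0, 92.4, 103, 92.5 and 81.7 at ZT6, 124, 112, 114 and 108 at ZT12 and 125, 130.2, 111 and 127 at ZT18. At ZT6 every SL mouse lay above every LL mouse, at ZT18 every SL mouse lay below, and at ZT0 and ZT12 the photoperiods overlapped. The ZT6 difference (log2 difference 0.54, SE 0.08, adjusted p = 8.03e-06) and the ZT18 difference (log2 difference -0.40, SE 0.08, adjusted p = 0.000686) held in every alternative. Time of day was called within SL (adjusted p = 2.71e-05) and within LL (adjusted p = 0.000682), and the adjusted interaction p was 7.17e-07. Of 7 tested enzymes of the carnitine shuttle and fatty acid oxidation, 5 were called in the interaction (32.7% of all tested genes). Cpt1a, the outer membrane carnitine palmitoyltransferase, was higher in SL at ZT0 and ZT6 (log2 differences 0.56 and 0.73, adjusted p = 0.00163 and 5.28e-05) and lower at ZT12 and ZT18 (-0.54 and -0.37, adjusted p = 0.00193 and 0.0432). Crot, the peroxisomal carnitine octanoyltransferase, ran the other way (-0.75, -0.55, 0.88 and 0.62 at ZT0, ZT6, ZT12 and ZT18, adjusted p at most 0.00275). The dehydrogenase Acadl was higher in SL at ZT6 (log2 difference 0.31, SE 0.08, adjusted p = 0.00828).

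Among 7 amino acid carriers the interaction was called in 4 (32.7% of all tested genes). Slc25a13 (chr6:6041218-6217173, minus strand), the liver form of the aspartate-glutamate carrier, exports aspartate for the urea cycle and the malate-aspartate shuttle. Slc25a13 in SL mice measured, in CPM, 269.8, 289, 279 and 252 at ZT0, 358, 367, 369 and 316 at ZT6, 304, 286, 284 and 283 at ZT12 and 259.6, 263, 259.9 and 255 at ZT18. Slc25a13 in LL mice measured, in CPM, 268, 277, 272 and 263 at ZT0, 307, 259, 273 and 215 at ZT6, 332, 351, 186 and 346 at ZT12 and 344, 348, 318 and 318 at ZT18. SL mice were higher without overlap at ZT6 (log2 difference 0.42, SE 0.12, adjusted p = 0.0145) and lower without overlap at ZT18, where the difference was not called (adjusted p = 0.0582). Its ZT6 call was lost without LL ZT6 replicate 4 (adjusted p = 0.0833). LL ZT12 replicate 3, at 186 CPM, lay far below its 3 group mates. Without that library time of day within LL was called (adjusted p = 0.000102, against 0.113 with it). Time of day within SL was called with all libraries (adjusted p = 0.0272). That SL call was lost without SL ZT6 replicate 1, 2 or 3 (adjusted p = 0.0726 to 0.09).

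Slc25a22, a glutamate carrier (chr7:141429744-141437892, minus strand), dipped in SL at ZT12 and in LL at ZT0. Slc25a22 in SL mice measured, in CPM, 206, 216, 194 and 183 at ZT0, 231, 209, 212 and 203 at ZT6, 151, 170.0, 158 and 142 at ZT12 and 187, 207, 206 and 217 at ZT18. Slc25a22 in LL mice measured, in CPM, 152, 185, 129.6 and 152 at ZT0, 204, 184, 197 and 191 at ZT6, 160.2, 187, 193 and 169 at ZT12 and 204, 185, 203 and 179 at ZT18. At ZT0 3 of 4 SL mice lay above all LL mice, and the fourth, at 183 CPM, fell just under the highest LL mouse. The ZT0 difference was called (log2 difference 0.37, SE 0.09, adjusted p = 0.00351) and held in every alternative, and the adjusted interaction p was 0.0045. Averaged over the 4 ZTs its log2 difference was 0.10 (SE 0.04, adjusted p = 0.958). Slc25a12, the second aspartate-glutamate carrier, was higher in SL at ZT0 (log2 difference 0.33, SE 0.11, adjusted p = 0.0428) and lower at ZT18 (log2 difference -0.39, SE 0.10, adjusted p = 0.0141). Its ZT0 call was lost in 10 of 32 fits without 1 library (up to 0.146 without LL ZT0 replicate 4), and its ZT18 call without SL ZT18 replicate 1 (adjusted p = 0.0588). Slc25a29, which carries basic amino acids, was higher in SL at ZT6 (log2 difference 0.79, SE 0.23, adjusted p = 0.0187), a call lost without SL ZT6 replicate 2, LL ZT6 replicate 2 or LL ZT6 replicate 3 (adjusted p = 0.0838, 0.0605 and 0.0793).

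Of the 6 tested enzymes of the urea cycle, which takes up the aspartate that Slc25a13 exports, 3 were higher in SL at ZT6 (6.9% of all tested genes) and 3 were lower at ZT18 (4.39%), and 4 were called in the interaction (32.7%). Asl, which releases arginine, had log2 differences of 0.98 at ZT6 and -1.13 at ZT18 (adjusted p = 8.84e-08 and 1.8e-08). Arg1 had 0.63 and -0.46 (adjusted p = 4.39e-05 and 0.00246), and Ass1, which joins aspartate to citrulline, 0.51 and -0.51 (adjusted p = 0.000824 and 0.00142). The ornithine carrier of the cycle, Slc25a15, passed no test. Its group means lay between 327 and 386 CPM, with an adjusted interaction p of 0.872. Of 4 malate-aspartate shuttle enzymes 2 were called in the interaction (32.7% of all tested genes), with Got1 at 0.82 at ZT6 and -0.77 at ZT18 (adjusted p = 0.000601 and 0.00207) and Mdh2 at 0.33 and -0.29 (adjusted p = 0.0112 and 0.0387). For Got2 the adjusted interaction p was 0.0772.

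In the adenine nucleotide and phosphate group the interaction was called in 4 of 6 (32.7% of all tested genes). Slc25a5 (chrX:36795651-36798807, plus strand) exchanges cytosolic ADP for matrix ATP and was the most abundant member per length. Slc25a5 in SL mice measured, in CPM, 356, 349, 388 and 360.4 at ZT0, 445, 391, 432 and 389 at ZT6, 362, 353, 381 and 385 at ZT12 and 331, 311, 319 and 335 at ZT18. Slc25a5 in LL mice measured, in CPM, 319, 296, 327 and 331 at ZT0, 347, 342, 337 and 288 at ZT6, 381, 381, 456 and 349 at ZT12 and 377, 389.5, 351 and 397 at ZT18. SL mice were higher without overlap at ZT0 and ZT6 and lower without overlap at ZT18. Only the ZT6 difference was called (log2 difference 0.33, SE 0.07, adjusted p = 0.0017), against adjusted p of 0.0993 at ZT0 and 0.0519 at ZT18, and the adjusted interaction p was 0.000291. Reads of Slc25a5 may be shared with its pseudogene Slc25a5-ps, which held 381 reads over all libraries.

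Slc25a3, the phosphate carrier, changed little, from 244 ± 11 CPM in LL ZT0 to 287 ± 10.03 in SL ZT6. Its ZT6 difference (log2 difference 0.19, SE 0.06, adjusted p = 0.0342) and its interaction (adjusted p = 0.034) were each lost in 8 of 32 fits without 1 library (up to 0.097 without SL ZT6 replicate 1 and 0.0718 without SL ZT18 replicate 2). Slc25a23, Slc25a24 and Slc25a25 are calcium-regulated ATP-Mg/phosphate carriers. Slc25a25 was lower in SL at ZT12 (log2 difference -0.61, SE 0.18, adjusted p = 0.0243), at 255 ± 33.1 CPM against 388 ± 72.1 in LL, a call lost without SL ZT12 replicate 2, 3 or 4 or LL ZT12 replicate 4 (up to 0.0854). Slc25a23 was higher in SL at ZT0 (log2 difference 0.21, SE 0.06, adjusted p = 0.0243), lost in 5 of 32 fits (up to 0.0853 without LL ZT0 replicate 1). Slc25a24 passed no test (adjusted p of the interaction by edgeR 0.381).

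Slc25a4 (chr8:46206797-46211284, minus strand), the translocator form of heart and skeletal muscle, was low in liver. Slc25a4 in SL mice measured, in CPM, 4.11, 4.3, 7.76 and 4.25 at ZT0, 2.81, 4.37, 4.27 and 4.57 at ZT6, 3.37, 4.83, 4.73 and 4.6 at ZT12 and 3.5, 6.27, 4.26 and 7.45 at ZT18. Slc25a4 in LL mice measured, in CPM, 4.4, 11.8, 3.74 and 3.59 at ZT0, 4.67, 4.96, 7.29 and 5.16 at ZT6, 3.86, 4.9, 6.54 and 4.81 at ZT12 and 7.63, 8.78, 22.2 and 5.67 at ZT18. The 3 highest libraries, at 22.2, 11.8 and 8.78 CPM, were LL ZT18 replicate 3, LL ZT0 replicate 2 and LL ZT18 replicate 2, which also held the highest sums of the 9 muscle markers. Those sums ran from 0.908 to 21.4 CPM in SL ZT0, 0.524 to 0.913 in SL ZT6, 0.676 to 1.17 in SL ZT12 and 0.735 to 39.7 in SL ZT18. In LL they ran from 0.797 to 122.6 at ZT0, 0.732 to 29.4 at ZT6, 0.833 to 1.58 at ZT12 and 12.9 to 249.2 at ZT18. LL ZT12 replicate 3 held 6.54 CPM of Slc25a4 at a marker sum of 1.58 CPM. Time of day within LL was called for Slc25a4 (adjusted p = 0.0465), for 9 of 9 muscle markers and for 18.3% of all tested genes. The call for Slc25a4 was lost in 23 of 32 fits that left out 1 library (up to 0.557 without LL ZT18 replicate 3). It was also lost without the 3 libraries over 50 CPM of muscle markers (0.28). None of the 9 markers was at 0 over all libraries, and the part of muscle RNA in the level of Slc25a4 was not tested. Without the same 3 libraries, which left 2 mice in LL ZT18, the ZT18 calls of Slc25a12, Slc25a32 and Slc25a51 were lost (adjusted p = 0.165, 0.237 and 0.198), with log2 differences of -0.34, -0.44 and -0.41 in place of -0.39, -0.50 and -0.47. At ZT18 the log2 difference was -1.03 (SE 0.35, adjusted p = 0.0572).

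Of the 11 carriers of cofactors and nucleotides, 4 were called in the interaction, near the share of 32.7% of all tested genes, and Slc25a51, Slc25a32 and Slc25a39 among them had their highest SL mean at ZT6. Slc25a51 (chr4:45395923-45408766, minus strand) carries NAD into the matrix. Slc25a51 in SL mice measured, in CPM, 50.6, 61, 69.4 and 51.9 at ZT0, 88, 96.9, 80.5 and 92.7 at ZT6, 38.1, 38.2, 50.7 and 40.9 at ZT12 and 57.3, 46.6, 52.7 and 44.3 at ZT18. Slc25a51 in LL mice measured, in CPM, 45.3, 51.4, 38.5 and 39.4 at ZT0, 73, 58.3, 45.9 and 56.8 at ZT6, 75, 63.6, 77.3 and 73.9 at ZT12 and 80.1, 64.7, 80.3 and 52.3 at ZT18. At ZT6 the lowest SL mouse lay above the highest LL mouse, and at ZT12 the highest SL mouse lay below the lowest LL mouse. Slc25a51 was higher in SL at ZT6 (log2 difference 0.62, SE 0.14, adjusted p = 0.00177) and lower at ZT12 (log2 difference -0.79, SE 0.14, adjusted p = 0.000176), both held in every alternative. It was also lower at ZT18 (log2 difference -0.47, SE 0.14, adjusted p = 0.0279), a call lost without SL ZT18 replicate 2 or 4 or LL ZT18 replicate 1 or 3 (0.0871 to 0.113). Within SL it had the smallest time of day p of the family (adjusted p = 2.64e-06), falling from 89.5 ± 7.02 CPM at ZT6 to 42 ± 5.96 at ZT12.

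Slc25a32 (chr15:39091231-39112716, minus strand), the folate and FAD carrier, had the largest called ZT6 difference of the family. Slc25a32 in SL mice measured, in CPM, 32.2, 43.1, 35.3 and 29.9 at ZT0, 55.8, 60.2, 62 and 49.1 at ZT6, 32.8, 28.7, 31.9 and 29.1 at ZT12 and 33.2, 33, 31.7 and 25.3 at ZT18. Slc25a32 in LL mice measured, in CPM, 32.2, 37.2, 31.8 and 29.7 at ZT0, 33.1, 30.4, 29 and 25.7 at ZT6, 44.5, 39.7, 20.5 and 43.4 at ZT12 and 46.7, 42.1, 49 and 36.5 at ZT18. The lowest SL ZT6 mouse, at 49.1 CPM, lay above every LL ZT6 mouse, and LL ZT18 replicate 3 came closest to it at 49.0. The ZT6 difference (log2 difference 0.95, SE 0.16, adjusted p = 6.21e-05) held in every alternative. Slc25a32 was lower in SL at ZT18, without overlap (log2 difference -0.50, SE 0.16, adjusted p = 0.0402), lost in 7 of 32 fits without 1 library (up to 0.149 without SL ZT18 replicate 4). Time of day within LL (adjusted p = 0.0426) was lost in 16 of 32 (up to 0.113 without LL ZT18 replicate 3), and LL ZT12 replicate 3 stood lowest of all libraries at 20.5 CPM.

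Slc25a39 (chr11:102402985-102407946, minus strand) imports glutathione and moved within a narrow range. Slc25a39 in SL mice measured, in CPM, 352, 314, 381 and 352 at ZT0, 378, 385, 383 and 396 at ZT6, 343, 358, 369 and 377 at ZT12 and 312, 307, 325 and 352 at ZT18. Slc25a39 in LL mice measured, in CPM, 322, 302, 294 and 314 at ZT0, 331, 299, 309 and 320.4 at ZT6, 368, 366, 377 and 344 at ZT12 and 389, 395, 339 and 388 at ZT18. SL mice were higher without overlap at ZT6, and at ZT18 3 of the 4 LL mice lay above all SL mice. It was called at ZT6 (log2 difference 0.29, SE 0.06, adjusted p = 0.00154) and at ZT18 (log2 difference -0.22, SE 0.06, adjusted p = 0.0235), the latter lost in 5 of 32 fits (up to 0.0877 without SL ZT18 replicate 2). Its interaction had an adjusted p of 0.000199. Slc25a40, its close paralog, passed no test at 5.91 CPM on average. The coenzyme A carrier Slc25a42 was higher in SL at ZT6 (log2 difference 0.40, SE 0.10, adjusted p = 0.00811), lost without SL ZT6 replicate 3 (adjusted p = 0.061), and its interaction missed the threshold (adjusted p = 0.0536; 0.0497 with the replicate block). Of 7 coenzyme A synthesis genes 2 were called in the interaction, near the share of 32.7% of all tested genes, namely Pank1 (adjusted p = 0.02) and Ppcdc (0.0383), and for Pank3 the p was 0.0556.

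Of the mitoferrins, which import iron, Slc25a37 was called and Slc25a28 was not. Slc25a37 was lower in SL at ZT12 (log2 difference -0.53, SE 0.12, adjusted p = 0.0036; -0.42 without LL ZT12 replicate 3; adjusted p = 0.0797 with the ZT12 groups alone), where SL mice lay below LL mice without overlap and the means were 46.2 ± 7.95 and 66.7 ± 10.7 CPM. For Slc25a28 the adjusted interaction p was 0.166. Of 8 genes of haem synthesis, which uses this iron, 7 were called in the interaction (32.7% of all tested genes). Alas1, the first and rate-limiting step, had log2 differences of 1.73, 2.78, -2.12 and -2.86 at ZT0, ZT6, ZT12 and ZT18 (adjusted p at most 0.0212). Alad was higher in SL at ZT0 (log2 difference 0.53, SE 0.12, adjusted p = 0.00373) and lower at ZT12 (log2 difference -0.64, SE 0.12, adjusted p = 0.000539).

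The 3 members that resemble uncoupling proteins were low or variable. Slc25a27 (chr17:43641891-43667214, minus strand) stood at 2.18 CPM on average. Slc25a27 in SL mice measured, in CPM, 2.57, 2.76, 1.61 and 1.7 at ZT0, 3.99, 2.91, 3.64 and 1.93 at ZT6, 2.07, 1.48, 1.62 and 1.56 at ZT12 and 2.08, 2.03, 1.76 and 1.55 at ZT18. Slc25a27 in LL mice measured, in CPM, 1.91, 1.52, 2.09 and 1.33 at ZT0, 1.56, 1.54, 2.08 and 1.6 at ZT6, 2.28, 2.87, 3.47 and 2.91 at ZT12 and 2.22, 1.9, 2.9 and 2.24 at ZT18. At ZT12 all SL mice lay below all LL mice, and at ZT6 3 of 4 SL mice lay above them. It was called at ZT6 (log2 difference 0.85, SE 0.21, adjusted p = 0.00394) and at ZT12 (log2 difference -0.79, SE 0.21, adjusted p = 0.0127; -0.69 without LL ZT12 replicate 3). Slc25a30 had the widest range of group means of all members (1.6 on the log2 scale, against a median of 0.47 over members and 0.42 over all tested genes) and also wide spread within groups, such as 71.1 ± 38.9 CPM in LL ZT18. It was called at no ZT, and its interaction (adjusted p = 0.0284) was lost in 5 of 32 fits (up to 0.0874 without SL ZT12 replicate 4) and with the replicate block (0.066). Slc25a14 passed no test. Among family members under other symbols, Ucp2, Mtch1 and Mtch2 were tested and 0 of 3 were called in the interaction by edgeR (adjusted p = 0.246, 0.48 and 0.904), while Ucp2 was higher in SL at ZT6 (log2 difference 0.68, SE 0.22, adjusted p = 0.0363).

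Among 7 remaining members 4 were called in the interaction (32.7% of all tested genes). Slc25a45 (chr19:5877808-5885878, plus strand) has no function assigned here. Slc25a45 in SL mice measured, in CPM, 34.6, 38.5, 35.4 and 32.5 at ZT0, 27.7, 26.6, 23.4 and 30.2 at ZT6, 30.3, 27.3, 28.4 and 28.8 at ZT12 and 37.7, 39.7, 36.7 and 45.8 at ZT18. Slc25a45 in LL mice measured, in CPM, 24.9, 28.8, 26.7 and 30.7 at ZT0, 38.4, 33.8, 35.5 and 37.7 at ZT6, 30.4, 31, 34.4 and 33 at ZT12 and 30.5, 25.8, 28 and 26.7 at ZT18. SL mice lay above LL mice without overlap at ZT0 and ZT18 and below without overlap at ZT6 and ZT12. Slc25a45 was lower in SL at ZT6 (log2 difference -0.43, SE 0.08, adjusted p = 0.000456) and higher at ZT18 (log2 difference 0.52, SE 0.08, adjusted p = 7.07e-05), both held in every alternative, and it was the sole member lower at ZT6 or higher at ZT18 among those called. Its ZT0 difference (log2 difference 0.34, SE 0.08, adjusted p = 0.00684) was lost without LL ZT0 replicate 1 (adjusted p = 0.054). The adjusted interaction p was 3.07e-07.

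Slc25a34 (chr4:141618824-141623821, minus strand), an orphan carrier, stood at 9.04 CPM on average. Slc25a34 in SL mice measured, in CPM, 9.62, 10.1, 11.6 and 10.3 at ZT0, 11.3, 9.91, 13.8 and 9.74 at ZT6, 6.91, 6.94, 6.8 and 8.79 at ZT12 and 7.66, 6.51, 7.79 and 7.76 at ZT18. Slc25a34 in LL mice measured, in CPM, 6.09, 9.48, 9.01 and 6.91 at ZT0, 7.14, 7.22, 8.11 and 7.39 at ZT6, 9.81, 10.4, 13.7 and 9.39 at ZT12 and 8.62, 8.85, 8.84 and 12.9 at ZT18. The photoperiods did not overlap at any of the 4 ZTs, with SL above at ZT0 and ZT6 and below at ZT12 and ZT18. It was called at ZT6 (log2 difference 0.58, SE 0.15, adjusted p = 0.00555) and at ZT12 (log2 difference -0.55, SE 0.15, adjusted p = 0.0118), the latter lost without LL ZT12 replicate 3 (log2 difference -0.41, adjusted p = 0.0691). Slc25a48 (chr13:56438355-56474239, plus strand), linked to choline transport, was highest at ZT0 in SL and at ZT12 in LL. Slc25a48 in SL mice measured, in CPM, 13.4, 11.3, 9.81 and 10.6 at ZT0, 10.1, 10.2, 8.82 and 9.44 at ZT6, 7.43, 6.24, 7.38 and 8.38 at ZT12 and 9.02, 8.3, 9.04 and 10.2 at ZT18. Slc25a48 in LL mice measured, in CPM, 6.09, 8.19, 7.92 and 7.5 at ZT0, 11, 7.77, 11.3 and 9.9 at ZT6, 12, 13.5, 8.8 and 9.62 at ZT12 and 10.5, 9.07, 7.88 and 10.5 at ZT18. SL mice were above LL mice without overlap at ZT0 (log2 difference 0.61, SE 0.14, adjusted p = 0.0041) and below at ZT12 (log2 difference -0.56, SE 0.14, adjusted p = 0.00601; adjusted p = 0.076 with the ZT12 groups alone).

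Slc25a47 (chr12:108836046-108856815, plus strand), a carrier largely restricted to liver, had the highest CPM of the family. Slc25a47 in SL mice measured, in CPM, 507, 672, 668 and 546 at ZT0, 674, 664, 619 and 529 at ZT6, 417, 524, 487 and 500.2 at ZT12 and 468, 361, 423 and 488 at ZT18. Slc25a47 in LL mice measured, in CPM, 558, 334, 563 and 436 at ZT0, 522, 496, 319 and 479.9 at ZT6, 548, 602, 583 and 615 at ZT12 and 587, 437, 537 and 543 at ZT18. SL mice were above LL mice without overlap at ZT6 and below without overlap at ZT12. The ZT6 difference (log2 difference 0.45, SE 0.15, adjusted p = 0.0323) was lost in 5 of 32 fits without 1 library (up to 0.16 without LL ZT6 replicate 3), and the ZT12 difference was not called (adjusted p = 0.215). Its interaction (adjusted p = 0.00482) held in every alternative. The outer membrane protein Slc25a46 was called at ZT6 (log2 difference 0.32, SE 0.11, adjusted p = 0.0475), lost in 22 of 32 fits (up to 0.206 without LL ZT6 replicate 4).

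Averaged over the 4 ZTs, the difference between photoperiods was called by edgeR in 0 of 41 members and in 0% of all tested genes. It was called in 0 members under every other tool and setting tried. By edgeR 2 members had an unadjusted p under 0.05, and the share of all tested genes under it is not given here. The 3 smallest unadjusted p belonged to Slc25a4 (log2 difference -0.49, SE 0.18, adjusted p = 0.958), Slc25a22 (0.10, adjusted p = 0.958) and Slc25a10 (0.09, SE 0.05, adjusted p = 0.987). For Slc25a4 the muscle marker sums are given above.

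The peaks of fitted 24 h waves lay far apart in the 2 photoperiods. With samples 6 h apart, the wave comes from ZT0 minus ZT12 and ZT6 minus ZT18, so sharper courses and other periods cannot be told apart from it. Intervals were counted back from the LL peak to the SL peak round the 24 h cycle. This direction is a convention, as each interval can also be read as SL later by the rest of the 24 h. In the 13 members with time of day called in both photoperiods, the median interval so counted was 10.8 h. It ran from 8.0 h in Slc25a5 to 12.1 h in Slc25a45. Slc25a11 peaked at ZT 2.94 ± 0.619 h (SE) in SL and 12.9 ± 0.52 in LL. Slc25a20 peaked later, at 7.23 ± 0.536 in SL and 16.4 ± 0.646 in LL. Slc25a48 peaked at 0.464 ± 0.839 in SL and 11.5 ± 0.931 in LL, and Slc25a45 at 19.8 ± 0.504 and 7.93 ± 0.727. The median log2 amplitude was 0.27 in SL and 0.25 in LL, and 8 of 13 members had the larger amplitude in SL. From plain group means the median interval was 10.8 h with all libraries and 10.5 h without LL ZT12 replicate 3. Of the 13 members, Slc25a22, Slc25a27, Slc25a32, Slc25a39 and Slc25a48 lost a time of day call in some fits that left a library out.

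**Figure D4:**
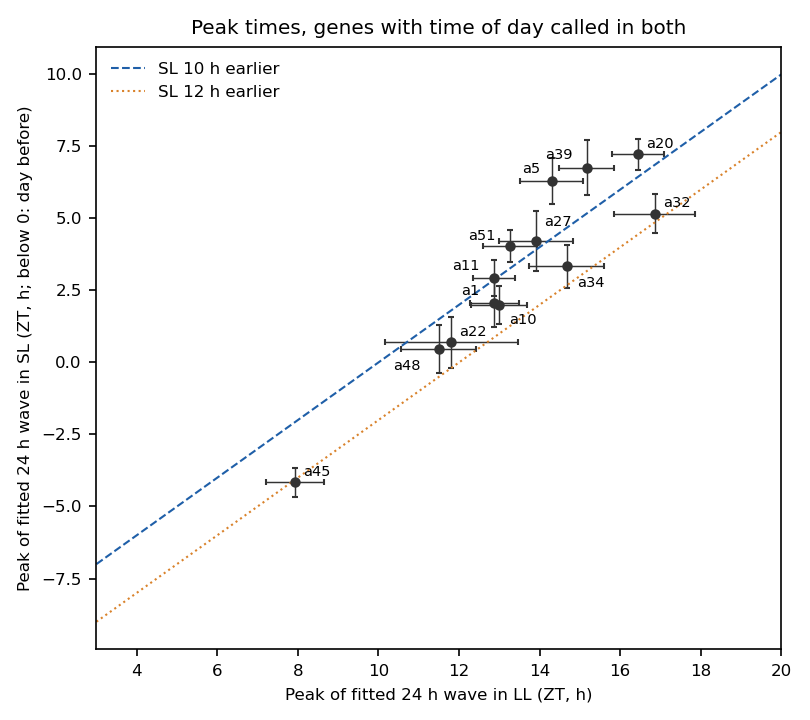
Peak time of the fitted 24 h wave in SL (y axis, h, times of the day before are negative) against LL (x axis, h) for the 13 genes called for time of day in both photoperiods, named by the end of their symbol; bars are SE, and the lines mark SL peaks 10 h and 12 h earlier. With intervals counted as SL before LL by convention, all 13 genes lie 8.0 to 12.1 h below equal times. Slc25a45 (a45) lies apart from the others at ZT 7.93 in LL.

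Each SL group was also set against the LL group sampled 12 h later. In that comparison the interaction was called in 0 of 41 members by edgeR and in 0.519% of all tested genes. It was called in 0 members under every other tool and setting tried. By edgeR 7 members had an unadjusted p under 0.05, and the share of all tested genes under it is not given here. The smallest adjusted p were 0.249 for Slc25a51, 0.309 for Slc25a20 and 0.348 for Slc25a5. A p above the threshold does not show equal courses, and this comparison was chosen with earlier results of these data known.

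Of the 41 members, 14 were called in no comparison, and the share of all tested genes called in none is not given here. Slc25a15, Slc25a44, Slc25a16 and Slc25a17 were well covered, at 349.8, 113, 76.9 and 53.3 CPM on average. Slc25a44 carries branched-chain amino acids, Slc25a16 is linked to coenzyme A and Slc25a17 serves peroxisomes. Slc25a17 had the smallest range of group means of the family, 0.13 on the log2 scale. Slc25a38, a glycine carrier needed for haem synthesis, stood at 23.8 CPM and the mitoferrin Slc25a28 at 17.5. The pyrimidine nucleotide carriers Slc25a33 and Slc25a36 stood at 10.8 and 2.94 CPM and the S-adenosylmethionine carrier Slc25a26 at 7.06. Slc25a40 (5.91), Slc25a35 (2.16), Slc25a53 (2.02), Slc25a14 (1.91) and Slc25a24 (1.39 CPM) were low. Without LL ZT12 replicate 3 the interaction was also called for Slc25a16, Slc25a42, Slc25a44 and Slc25a46 (adjusted p = 0.0443, 0.034, 0.00822 and 0.0104). Slc25a35 shares 1151 exon bases, 31.3% of its own, with Rangrf on the opposite strand, so its count is uncertain.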

How the data were processed

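Liver polyadenylated RNA of 32 mice was sequenced with a stranded kit, per the labels' protocols. The authors deposited read counts per gene (55471 genes, raw) and a table of log2 values (13432 genes). Over the 41 members, the largest gap between the deposited log2 values and log2 CPM from the counts was 0.0213. The submitters' processing notes name bcl2fastq 2.20.0, STAR 2.7.2b, featureCounts 1.6.2 and GRCm38/mm10, and neither strand setting nor annotation of the counting is given in the sources used here. Each library has its own label in both tables, and 0 columns of per-sample values were left unused.

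Counts were tested with edgeR 4.0.16 (R 4.3.3), using the quasi-likelihood test after TMM scaling, the filterByExpr filter (14456 genes kept) and 1 model of all 8 groups. The contrasts were SL minus LL per ZT and over all ZTs, the interaction with 3 degrees of freedom, time of day in either photoperiod, and the interaction with LL taken 12 h later. Adjusted p are Benjamini-Hochberg values across the tested genes, and 0.05 was the threshold. Values per mouse are CPM, ± is the SD of 4 mice, and RPKM divides CPM by the GENCODE M21 exon length. Total counts of 9095615 to 27462776 set the precision of low genes. On simulated counts with a change added to SL ZT6, the ZT6 test recovered 36 of 100 genes changed by 0.5 on the log2 scale and 82 of 100 changed by 1. In that simulation the other groups and most genes were left unchanged, so these recoveries do not carry over to the members.

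Members and lists were chosen with earlier results of these data known. Members described mouse by mouse were the 12 with the smallest interaction p, the 4 with the smallest time of day p in each photoperiod, the 3 with the smallest p averaged over ZTs and the 5 highest per length. At each ZT the 4 largest called rises and falls among members of at least 1 CPM were named, and of each partner list the 3 genes with the smallest interaction p. The values of 1 member and 1 partner gene are not reported here, though both stand in the counts. Alternatives were DESeq2 1.42.0 and its size factors, TMM without mitochondrially encoded and the 20 most abundant genes, limma 3.58.1 (voom, and on the deposited log2 values), no filter, a filter of 1 CPM in every library, the compared groups alone, a replicate block and each library left out.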

Additional observations from a re-analysis of the deposited data

Results flagged for a closer look

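In 21 of 328 groups of 4 mice (6.4%), 1 mouse lay far from the other 3 by Dixon's criterion, while chance alone marks about 1 group in 20. Slc25a4 was at 7.76 CPM in SL ZT0 replicate 3, 2.81 CPM in SL ZT6 replicate 1, 3.37 CPM in SL ZT12 replicate 1 and 11.8 CPM in LL ZT0 replicate 2, Slc25a5 was at 288 CPM in LL ZT6 replicate 4 and Slc25a10 was at 151 CPM in LL ZT18 replicate 3. Slc25a13 was at 304 CPM in SL ZT12 replicate 1 and 186 CPM in LL ZT12 replicate 3, Slc25a16 was at 44.4 CPM in LL ZT12 replicate 3 and Slc25a25 was at 556 CPM in SL ZT18 replicate 3. Slc25a26 was at 9.23 CPM in SL ZT0 replicate 3, Slc25a27 was at 2.08 CPM in LL ZT6 replicate 3 and Slc25a29 was at 3.20 CPM in SL ZT12 replicate 1. Slc25a34 was at 8.79 CPM in SL ZT12 replicate 4, 6.51 CPM in SL ZT18 replicate 2 and 12.9 CPM in LL ZT18 replicate 4, Slc25a35 was at 3.53 CPM in SL ZT0 replicate 1 and 1.47 CPM in SL ZT12 replicate 1 and Slc25a39 was at 339 CPM in LL ZT18 replicate 3. Slc25a40 was at 7.14 CPM in SL ZT6 replicate 3 and Slc25a42 was at 150.1 CPM in SL ZT6 replicate 3. LL ZT12 replicate 3 was the mouse concerned for Slc25a13 and Slc25a16, and the library that stood apart over all genes.

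SL minus LL differed across ZTs in 24 of the 41 members, by the interaction test of edgeR. That test was called in 32.7% of all tested genes and in 47% of those with a mean of at least 50 CPM. The adjusted p of 23 members follow each name. The smallest belonged to Slc25a11 (2.77e-07), Slc25a45 (3.07e-07), Slc25a20 (7.17e-07), Slc25a51 (1.13e-06), Slc25a10 (4.53e-06), Slc25a1 (8.01e-06), Slc25a32 (2.57e-05) and Slc25a34 (6.09e-05). Next came Slc25a39 (0.000199), Slc25a5 (0.000291), Slc25a27 (0.000299), Slc25a48 (0.000323), Slc25a37 (0.000885), Slc25a12 (0.00121) and Slc25a29 (0.00375). The largest belonged to Slc25a21 (0.00416), Slc25a22 (0.0045), Slc25a47 (0.00482), Slc25a13 (0.00502), Slc25a25 (0.00817), Slc25a23 (0.0196), Slc25a30 (0.0284) and Slc25a3 (0.034). 

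Reads also fell on 4 genes of the family that the deposited log2 table does not list. Over the 32 libraries the pseudogene Slc25a5-ps held 381 reads, Slc25a18 held 133, Slc25a2 held 74 and Slc25a43 held 32. Slc25a31 held 3 reads, Slc25a41 held 1 and Slc25a54 held 0, at or under the 3 counts that a total of 0 allows. These genes were not tested.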

How the results depend on the processing

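No called difference changed direction under any alternative. The count of called members fell from 10 to 3 at ZT12, and from 15 to 9 for time of day within LL, when only the compared groups were fitted, which leaves fewer samples to estimate the spread. At ZT12 the calls then lost were Slc25a1 (adjusted p = 0.0991), Slc25a10 (0.0515), Slc25a11 (0.0621), Slc25a21 (0.132), Slc25a34 (0.0791), Slc25a37 (0.0797) and Slc25a48 (0.076). Leaving out the 3 libraries with over 50 CPM of muscle markers was an alternative chosen after seeing the data. It gave 3 members in place of 6 at ZT18 and left 2 mice in LL ZT18. Fewer mice and the content of the libraries left out cannot be told apart there. Leaving out each library in turn gave 5 to 15 members at ZT0, 12 to 18 at ZT6, 9 to 12 at ZT12, 3 to 11 at ZT18, 23 to 27 for the interaction, 15 to 24 for time of day within SL and 11 to 20 within LL. The shares of all tested genes called under the alternatives are not given here. Slc25a23 and Slc25a3 lost their interaction calls with no filter (adjusted p = 0.244 and 0.278). With the replicate block the counts were 7, 17, 10 and 8 at ZT0, ZT6, ZT12 and ZT18, 24 for the interaction (Slc25a30 lost and Slc25a42 gained), 19 and 15 for time of day within SL and LL, and 0 for the others. Replicate numbers did not pair the samples, as the mean correlation of deviations over 112 same-numbered pairs was -0.000292 and 9 of 32 libraries were closest to their own number. Over the 164 results of single members, 156 kept their side of the threshold with DESeq2, 158 with limma-voom, 160 with limma on the deposited values and 149 with no filter. Depth limits members near 1 CPM, and a missed threshold does not show equal levels.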

Other observations

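Of 19 other transporters and channels of the mitochondrial membranes, 10 were called in the photoperiod by ZT interaction by edgeR, against 32.7% of all tested genes. Mcu, the pore of the calcium uniporter, was lower in SL at ZT0 (log2 difference -0.78, SE 0.13, adjusted p = 7.78e-05) and ZT6 (log2 difference -0.88, SE 0.13, adjusted p = 1.01e-05). It was higher in SL at ZT12 (log2 difference 0.90, SE 0.13, adjusted p = 9.6e-06) and ZT18 (log2 difference 0.88, SE 0.13, adjusted p = 2.29e-05), so its signs were opposite to those of Slc25a11. Its mean level was 16.2 ± 0.764 CPM in SL ZT0 and 28 ± 4.85 in LL ZT0 (SD, n = 4), against 27.3 ± 2.02 and 14.6 ± 2.05 at ZT12. The outer membrane channels Vdac2 and Vdac1 had the signs of Slc25a11. Vdac2 was higher in SL at ZT0 (log2 difference 0.37, SE 0.07, adjusted p = 0.000596) and lower at ZT12 (log2 difference -0.53, SE 0.07, adjusted p = 4.9e-06). Vdac1 was higher at ZT6 (log2 difference 0.23, SE 0.06, adjusted p = 0.00453) and lower at ZT18 (log2 difference -0.35, SE 0.06, adjusted p = 9.46e-05). Over the 19 genes, 4 were higher and 1 was lower in SL at ZT0 (6.07% and 4.97% of all tested genes) and 5 and 1 at ZT6 (6.9% and 8.38%). At ZT12 they were 1 and 5 (6.05% and 6.4%), and at ZT18 2 and 3 (4.82% and 4.39%).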
